A study of Arabidopsis thaliana with 2 samples.

Results

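The interval described here is the short arm and pericentromere of chromosome 2 of Arabidopsis thaliana, taken as positions 1 to 6000000 of the TAIR10 build. It holds 2697 of the 40612 SNP positions listed for the 5 chromosomes. Its end lies 2 Mb beyond a rounded centromere position of 4 Mb, so the limit is a position. The interval and its gap near 3.3 to 3.5 Mb were nevertheless picked with earlier results of this list known, and the gap is described, not tested. The last listed SNP inside it is at position 5997102 and the next one outside it is at position 6000375.

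The aim was to map potent, a dominant mutation from a screen of EMS-mutagenized seeds (50 mM ethyl methanesulfonate, 12 hours) for seedlings with impaired lateral root formation. The parent was a Col-0 line with 3 reporters, DR5::Luciferase, pWOX5::ER-YFP and pSCR::ER-GFP, and the mutant was crossed 6 times to it and then 5 times to the ecotype Ler. Genomic DNA of seedlings with the phenotype and of seedlings without it, both labelled Ler and both from the fifth Ler cross, was sequenced as 1 pool each, and potent had been kept heterozygous during the crosses to the parental line. The list analysed here names neither pool, and it is called homozygous by its title. It gives no allele or read depth, so the depth behind each position is unknown. With 1 pool per phenotype and 1 list there is no replicate, no value for either pool and no test of a difference. Poisson and binomial intervals below reflect counting error alone, and linked SNPs are not independent counts.

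As background, a pericentromere is the stretch on either side of the centromere, where crossovers are rare, genes are few and transposon remnants are common. The short arm of Arabidopsis chromosome 2 begins with a nucleolus organizer, a tandem array of ribosomal RNA genes, of which the reference holds only the edge. Near the centromere, the Col-0 reference also carries a large insertion of mitochondrial DNA in the nuclear chromosome, which brought copies of mitochondrial protein and tRNA genes. Most of the SNPs that separate Col-0 from Ler are natural differences between the ecotypes. The list has no alleles, so EMS-induced changes are not separable from them. Where no SNP is listed, the seedlings may carry the reference allele or be heterozygous, or the site may not have been callable, and these cases cannot be told apart.

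Listed SNPs were denser in the interval than on the rest of chromosome 2 and sparser than in the same 6 Mb of chromosome 4, whose rounded centromere position is also 4 Mb. The interval held 450 listed SNPs per Mb (95% Poisson interval 433 to 467). The chromosome 2 long arm, from 6000001 to the last listed SNP, held 4115 SNPs, or 300 per Mb (291 to 310). Chromosome 4 held 4969 in its first 6 Mb, or 828 per Mb (805 to 852). The 3 counting intervals did not overlap. These densities come from linked positions of 1 list and no test of their difference was possible.

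Of 3 stretches of 2 Mb, the distal short arm had the lowest density. In the first 2 Mb 803 SNPs were listed, or 402 per Mb (374 to 430). The 2 Mb before the rounded centromere position held 891, or 446 per Mb (417 to 476), and the 2 Mb after it held 1003, or 502 per Mb (471 to 534). The segment from 3.2 to 3.6 Mb, which holds the mitochondrial insertion, carried 63 SNPs in 0.4 Mb, or 158 per Mb (121 to 202). Without it, the 2 Mb before the centromere position held 828 SNPs in 1.6 Mb, or 518 per Mb (483 to 554). The order of both sides of the centromere thus turned with this segment, and their intervals then overlapped. Without it, the 4 Mb of pericentromere held 509 per Mb (486 to 532), and with it 474 (452 to 495). The segment was picked with its gap known, so leaving it out could only raise these densities. Nothing was left out on the other side of the centromere.

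In 100 kb windows the distal short arm was more even than the pericentromere. Over the 60 windows of the interval the lowest count was 0, the median 43.5 and the highest 103. The 20 windows of the first 2 Mb ranged from 16 to 61 with a median of 40, and the ratio of their variance to their mean was 2.55. The 40 windows of the pericentromere ranged from 0 to 103 with a median of 48.5, and their ratio was 15.2. For SNPs spread at random and evenly the ratio would be near 1. The ratio was 11.5 over the interval, 5.98 over 136 windows of the long arm and 17.8 over 60 windows of chromosome 4. In the same order the mean counts were 45, 30.2 and 82.8, with standard deviations of 22.8, 13.4 and 38.4. At equal relative spread the ratio rises with the mean, so it does not rank these segments by evenness.

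The fullest window of the interval lay beside its emptiest stretch. The window from 3.1 to 3.2 Mb held 103 SNPs and the one before it, from 3 to 3.1 Mb, held 89. The next window, from 3.2 to 3.3 Mb, held 13, the window from 3.3 to 3.4 Mb held 2 and the window from 3.4 to 3.5 Mb held 0. Counts then returned to 48 between 3.5 and 3.6 Mb and 65 between 3.6 and 3.7 Mb. Other full windows lay beyond the centromere, with 93 SNPs from 5.3 to 5.4 Mb and 90 from 5.7 to 5.8 Mb.

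Low windows were those with fewer SNPs than 20% of their chromosome's median window, which for chromosome 2 means under 6.6 SNPs against a median of 33. The limit thus differed between chromosomes. On chromosome 4 it was under 4 SNPs, from a chromosome median of 20, while the median window of its first 6 Mb held 84. In the interval 3 of 60 windows (5%) were low, against 16.6% of the 1188 windows of the 5 chromosomes, 9 of 136 (6.62%) on the long arm and 0 of 60 in the first 6 Mb of chromosome 4. The 3 were the windows from 3.3 to 3.4 Mb, from 3.4 to 3.5 Mb and from 4.4 to 4.5 Mb, the last with 4 SNPs. The share was below that of the genome, as it was on the long arm and on chromosome 4, and these differences were not tested.

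**Figure D1:**
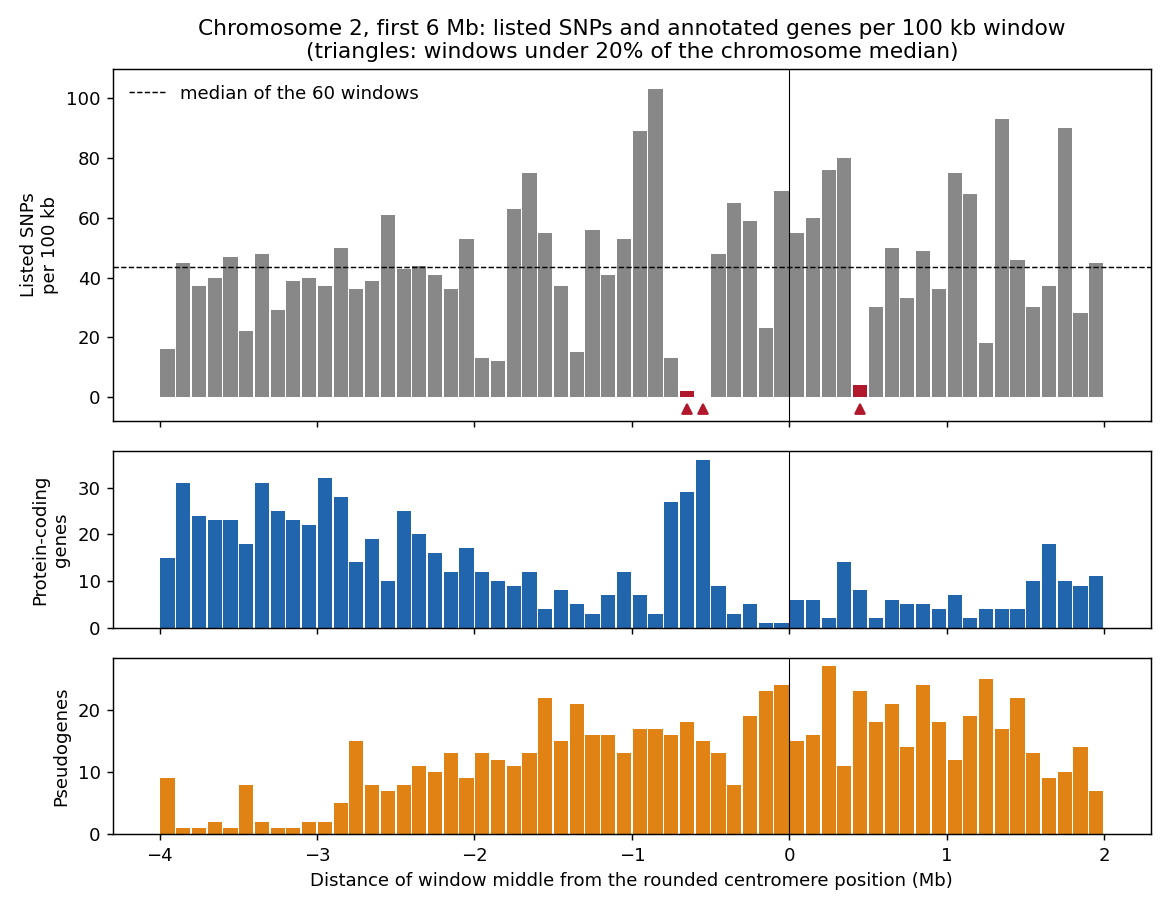
Listed SNPs (top), protein-coding genes (middle) and pseudogenes (bottom) in each of the 60 windows of 100 kb, plotted against the distance of the window's middle from the rounded centromere position in Mb. Red bars and triangles mark the 3 windows under 20% of the chromosome median, 1 of which holds 0 SNPs, and the dashed line is the median of 43.5.

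The longest gap of the interval lay in the segment with the mitochondrial insertion. It opened at position 3338190 and closed at 3514895, 177 kb further on. It was preceded by a gap of 23.7 kb, from 3314501 to 3338190, and by one of 82.8 kb, from 3231740 to 3314501, the third longest of the interval. The 3 consecutive gaps made a span of 283 kb interrupted by only 2 listed SNPs, at 3314501 and 3338190. That is 7.06 SNPs per Mb (0.855 to 25.5), while the 100 kb ending at the last SNP before the span held 95 and the 100 kb starting at the first SNP after it held 48.

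This span was rich in annotated genes. It held 94 protein-coding genes, 46 pseudogenes and 23 tRNA genes, and none of these carried a listed SNP. The span was drawn from consecutive gaps and has only 2 listed SNPs, so gene counts at or near 0 were fixed by that choice. Over the whole interval 40.9% of protein-coding genes and 39.5% of 773 pseudogenes held one. Of tRNA genes 0 of 30 in the interval and 0 of 65 on the long arm did, so the 0 among tRNA genes is not particular to the span. Both SNPs inside it fell in genes that the annotation classes as miscellaneous RNA, AT2G00460 and AT2G05235. Of the 30 tRNA genes of the whole interval, 23 lay in this span. The window from 3.4 to 3.5 Mb, the only one of the 60 without a SNP, held 36 protein-coding genes, more than any other window of the interval. Genes with a symbol in the span were ABCI4 and ABCI5, both annotated as ATP-binding cassette proteins of subfamily I. The length of the insertion itself was not measured, because no genome sequence was used.

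Listed SNPs resumed in the first protein-coding gene after the span. The last SNP before it, at 3231740, lay between annotated genes. The first SNP after it, at 3514895, lay in ABCC13, an ATP-binding cassette transporter gene with 6 listed SNPs in 7.99 kb. The next protein-coding gene, MCM5, which encodes a subunit of the helicase that unwinds DNA at replication, had 1. Of the 184 loci numbered AT2G07 that start between 3.2 and 3.6 Mb, the list taken for nuclear copies of mitochondrial genes, 15 held a SNP. All 15 lay outside the span, which was drawn from gaps and has only 2 listed SNPs, so little else was possible. The list also takes in neighbours such as ABCC13 and MCM5. Among its 101 protein-coding members 3 held a SNP, among its 62 pseudogenes 12 did, and among its 21 tRNA genes 0 did, as for every tRNA gene that starts before the last listed SNP of chromosome 2. For all 27444 protein-coding genes of the 5 chromosomes the share with a SNP was 29.2%.

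**Figure D2:**
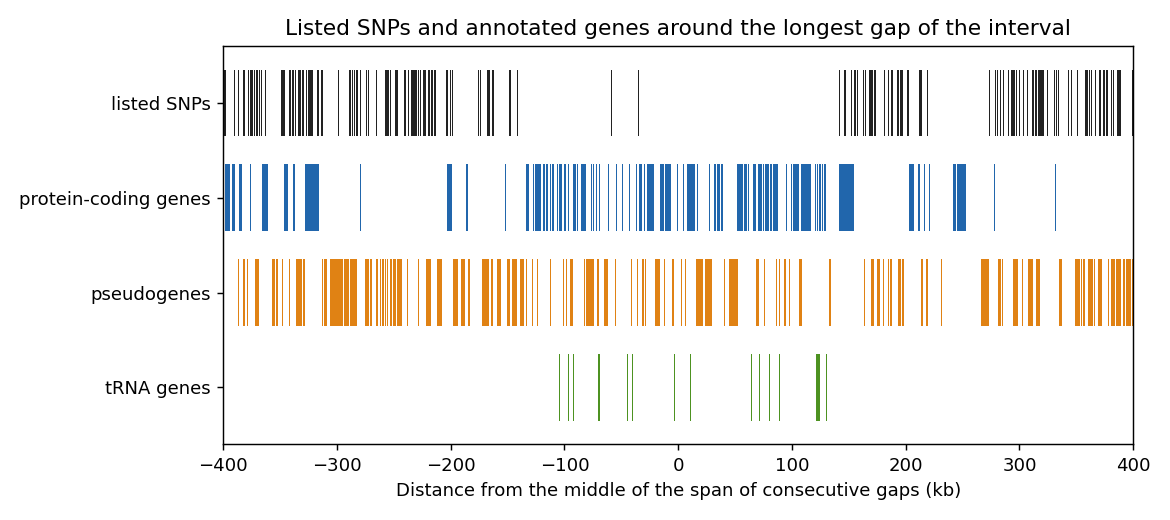
Positions of listed SNPs, protein-coding genes, pseudogenes and tRNA genes within 400 kb either side of the middle of the span of 3 consecutive gaps, in kb. Each bar is 1 SNP or gene, drawn at least 0.8 kb wide. The 2 SNPs inside the span stand alone, while protein-coding genes and 23 tRNA genes fill it.

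The second longest gap lay at the outer edge of the pericentromere, just inside its 2 Mb limit. It ran from 2022432 to 2184337, a distance of 162 kb, and held 19 protein-coding genes and 18 pseudogenes, with no tRNA gene. Genes with a symbol in it were GRP-3 (a glycine-rich protein), PGR5 (proton gradient regulation 5, needed for cyclic electron flow around photosystem I), ATG8D (an autophagy protein of the ATG8 group), ACO3 (an aconitase) and the microRNA gene MIR8180. As members of the gap, all carried 0 listed SNPs. The gap spread over the windows from 2 to 2.1 Mb and from 2.1 to 2.2 Mb, which held 13 and 12 SNPs, so neither window was called low.

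Pseudogenes, which in this annotation include transposon remnants, outnumbered protein-coding genes in 3 of the next 4 gaps by length. They also did so in the pericentromere as a whole, where all 4 gaps lay, with 657 pseudogenes and 340 protein-coding genes. The majority of pseudogenes is therefore not particular to these gaps. The fourth longest, 63 kb from 4379828 to 4442851, held 16 pseudogenes and 3 protein-coding genes. It was followed directly by a gap of 50.7 kb, from 4442851 to 4493513, with 8 pseudogenes and 6 protein-coding genes. The SNP that separates them lay in AT2G11180. The fifth longest, 59.6 kb from 2618678 to 2678265, held 15 pseudogenes and 4 protein-coding genes. The sixth, 54.5 kb from 3592186 to 3646702, held 2 pseudogenes and 3 protein-coding genes. None of the protein-coding genes in these 4 gaps had a symbol of its own in the table.

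Long gaps were mostly pericentromeric. Of 19 gaps of 20 kb or more, 15 lay within the pericentromere and 3 within the first 2 Mb, and 1 crossed the limit between them. All 7 gaps of 50 kb or more were pericentromeric. Gaps of 20 kb or more took up 22.2% of the pericentromere and 4.15% of the first 2 Mb, where the longest was 28.6 kb. For the interval as a whole they took up 992 kb, or 16.5%. The long arm had more of them, 68, covering 18.2% of its length, and its longest was 122 kb. Chromosome 4 had 16 in its first 6 Mb, covering 9.14%, and its longest was 68.8 kb.

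**Figure D3:**
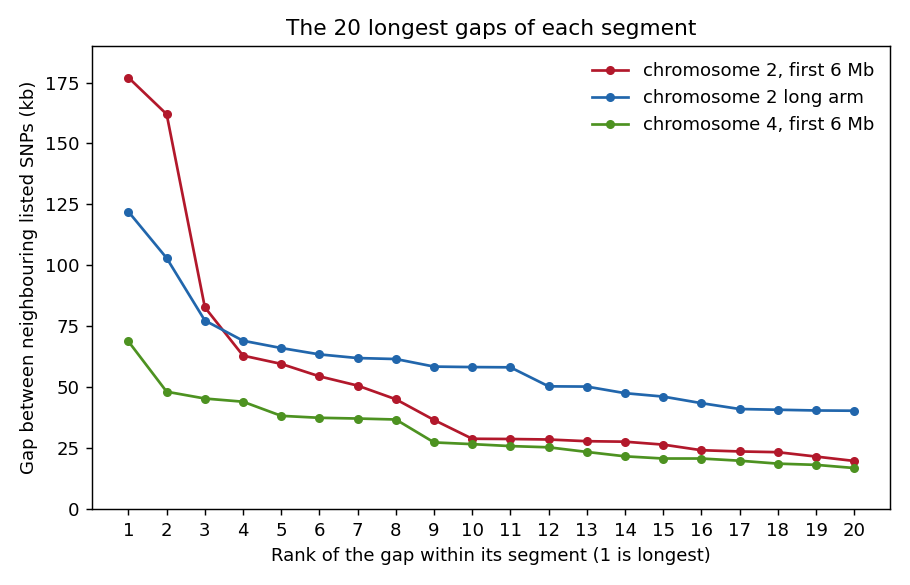
Length in kb of the 20 longest distances between neighbouring listed SNPs, by rank, in the first 6 Mb of chromosome 2, the chromosome 2 long arm and the first 6 Mb of chromosome 4. The interval has the 2 longest gaps (177 and 162 kb) and leads rank by rank up to rank 3 (82.8 kb), while from rank 4 on the long arm lies above it. The long arm is 13.7 Mb long and the others 6 Mb, so ranks are not compared over equal lengths.

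At the chromosome end, the first listed SNP was at position 30947. The rRNA genes AT2G01010 and AT2G01020 of the nucleolus organizer end, the 2 rRNA genes of the interval in the table, lay before it and carried 0 listed SNPs, with the nearest SNP 25.4 and 25 kb away. The first window of 100 kb held 16 SNPs, the fewest of the distal short arm.

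SNPs were clumped at short range throughout the interval. Neighbouring SNPs lay a median of 776 bp and a mean of 2210 bp apart. Of 2696 distances, 502 (18.6%; exact binomial 95% interval 17.2 to 20.1) were 100 bp or less, 171 were 10 bp or less and 36 joined adjacent bases. Distances of 1 kb or less made up 56% (54.1 to 57.9). The corresponding shares within 100 bp were 14% (13 to 15.1) on the long arm and 25.9% (24.7 to 27.2) in the first 6 Mb of chromosome 4, in the same order as the densities of these segments. Relative to the mean distance, the median was 35% in the interval, 44.3% on the long arm and 37.4% on chromosome 4. Long gaps raise the mean, so this share does not measure clumping at short range alone.

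Short distances made up more of the pericentromere than of the first 2 Mb. Distances of 100 bp or less were 20% (18.2 to 21.8) of the former and 15.5% (13 to 18.2) of the latter, and these intervals met at their ends. Distances of 1 kb or less were 59.6% (57.4 to 61.9) and 47.6% (44.1 to 51.2), without overlap. The median was 30.3% of the mean in the pericentromere and 45.4% in the first 2 Mb. Gaps of 20 kb or more, which raise the mean, took up 888 kb of the former and 83.1 kb of the latter. This contrast is therefore in part one of gaps. The pericentromere thus had both the shorter median distance, 637 against 1110 bp, and the longer gaps.

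**Figure D4:**
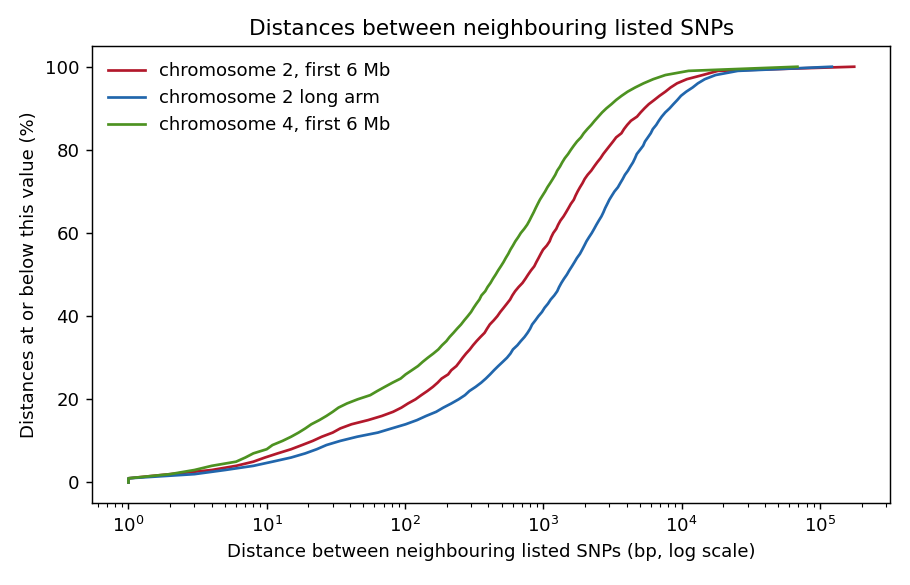
Cumulative share (%) of distances between neighbouring listed SNPs against distance in bp on a log scale, for the first 6 Mb of chromosome 2, the chromosome 2 long arm and the first 6 Mb of chromosome 4. The median distance was 776 bp in the interval, between 452 bp on chromosome 4 and 1480 bp on the long arm.

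Joining SNPs no more than 1 kb apart gave 1186 clusters, of which 572 (48.2%) were lone SNPs, 285 were pairs and 19 held 10 SNPs or more. These 19 held 260 SNPs, or 9.64% of the interval's, and 17 of the 19 were pericentromeric. The pericentromere also held 765 of the 1186 clusters of any size and 70.2% of the interval's SNPs. Lone SNPs were 63.4% of clusters on the long arm and 40.2% on chromosome 4. SNPs with no other within 10 kb were rare, 12 (0.445%) in the interval and 45 (1.09%) on the long arm. The first 6 Mb of chromosome 4 had 5 (0.101%), so these shares ran in the reverse order of the segments' densities. In 10 kb windows, 107 of 600 (17.8%) were empty, and the 60 fullest held 31.2% of the SNPs.

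The largest cluster held 22 SNPs in 4.31 kb, from 3138205 to 3142515, and lay outside every annotated gene. It was followed within the same 100 kb window by a cluster of 14 in 1.64 kb, from 3149187 to 3150826, also outside every gene, and the fullest 10 kb window of the interval, from 3150001 to 3160000, held 31. The second largest, 17 SNPs in 4.22 kb from 4341964 to 4346188, lay in the gene MAK10. Clusters of 16 SNPs lay at 4091554 to 4096282, across the pseudogene AT2G10540 and the protein-coding gene AT2G10550, and at 5301891 to 5305102, in the pseudogene AT2G12920. Of the 10 largest clusters, 7 overlapped a pseudogene by any part of their length. In the pericentromere pseudogenes cover 36.7% of the length and hold 42.2% of the SNPs. These are shares of single bases and single SNPs, and a cluster of several kb touches a pseudogene more readily. The 7 therefore cannot be read against them, and the share of all clusters touching a pseudogene was not counted.

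Of 768 protein-coding genes, 314 (40.9%; 37.4 to 44.5) held at least 1 listed SNP, beside 29.2% over the 5 chromosomes and 37.2% of 3549 genes on the long arm. In the first 2 Mb the share was 49.8% of 428 genes. In the pericentromere it was 29.7% of 340 genes with the segment from 3.2 to 3.6 Mb and 41% of 239 without it. Most genes had few: 454 held 0, 153 held 1, 78 held 2, 33 held 5 or more and 3 held 10 or more.

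Over the interval as a whole, density was higher in genes than outside them. Protein-coding genes held 464 SNPs per Mb (430 to 500), pseudogenes 518 (485 to 554) and the remaining sequence, free of annotated genes, 399 (376 to 423). The counting intervals of protein-coding genes and of sequence outside genes did not overlap. They treat linked, clumped SNPs as independent counts and are therefore too narrow, and the difference was not tested. On the long arm, protein-coding genes and sequence outside genes held 298 (286 to 310) and 294 (279 to 310) per Mb, and on chromosome 4 the order was the opposite, 813 (771 to 857) and 924 (888 to 961).

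The order of the classes differed along the interval. In the first 2 Mb protein-coding genes held 478 per Mb (433 to 526), against 353 (280 to 439) in pseudogenes and 337 (300 to 378) outside genes. In the pericentromere without the segment from 3.2 to 3.6 Mb, protein-coding genes held 553 (487 to 625) and pseudogenes 564 (525 to 606), against 451 (420 to 483) outside genes. Within that segment protein-coding genes held 67.7 (30.9 to 128), pseudogenes 277 (184 to 400) and sequence outside genes 153 (98.2 to 228). Of its 101 protein-coding genes 94, and of its 62 pseudogenes 46, lay in the span of consecutive gaps, and none of these held a SNP. The segment was drawn around that span, so the order of its classes was largely fixed by that choice. Protein-coding genes covered 43.7% of the first 2 Mb and 14.9% of the pericentromere, and pseudogenes 11.5% and 36.7%. Across the 60 windows, the rank correlation of SNP count with the number of protein-coding genes was -0.34, and -0.25 over 56 windows without the segment. It was 0.035 with the number of pseudogenes. These are descriptions over linked windows of 1 list.

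**Figure D5:**
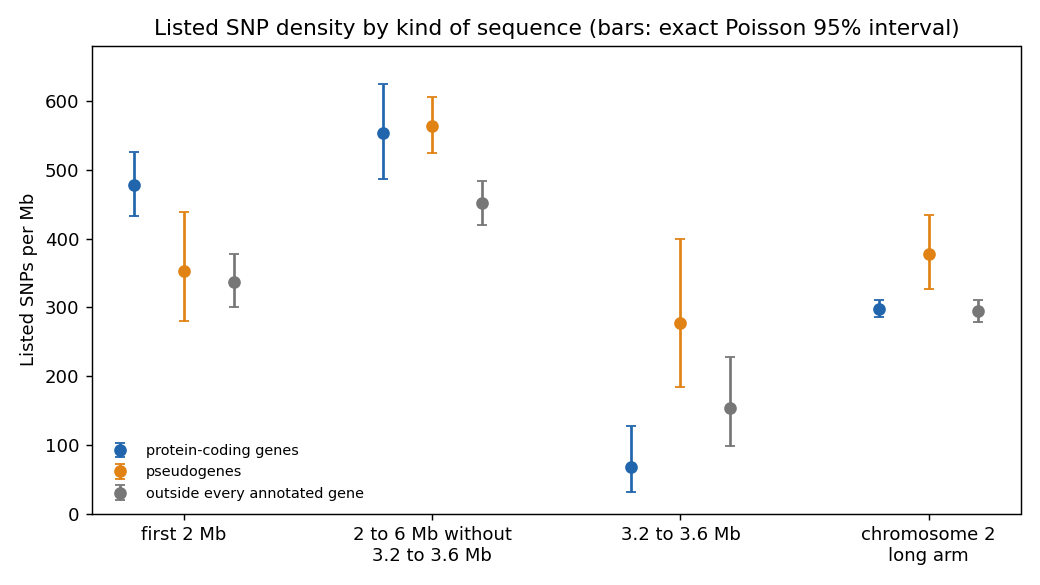
Listed SNPs per Mb in protein-coding genes, in pseudogenes and outside genes, for 3 stretches of the interval and the chromosome 2 long arm. Bars are exact Poisson 95% intervals of the counts. The protein-coding genes of the segment from 3.2 to 3.6 Mb lie lowest, at 67.7 per Mb. Of these 101 genes, 94 lie in the span of 3 consecutive gaps, so this low value was largely fixed by the choice of segment.

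The 10 protein-coding genes with the most listed SNPs had from 7 to 19 each. MAK10 (AT2G11000), named as a homologue of a yeast gene for a subunit of an N-terminal acetyltransferase, had 19 SNPs in 6.87 kb, or 2.77 per kb. AT2G07360 had 11, AT2G05120 had 10 and AT2G05350 had 9. FUT2 (AT2G03210), a fucosyltransferase gene, also had 9 in 1.96 kb, the highest value of the 10 per kb, 4.58. LOV1 (a NAC-domain transcription factor named for a long vegetative phase), REME1 (a mitochondrial RNA editing factor), NUDT5 (a nudix hydrolase), AT2G07240 and AIR3 had 7 each. FUT2 has a neighbouring relative, MUR2 (AT2G03220), the fucosyltransferase of xyloglucan in the cell wall, which had 0, with the nearest SNP 486 bp away. For related genes such as these, reads may be placed on the wrong copy, which was not tested here.

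Hormone signalling and transport genes held a listed SNP in 5 of 10 cases, beside 40.9% of protein-coding genes in the interval and 29.2% over the 5 chromosomes. With so few genes this is near the interval's share. Their median was 0.5 SNPs per gene, and that of all protein-coding genes, of the interval or of the genome, was 0. AIR3, a subtilisin-like protease first found as an auxin-induced gene of root cultures, had 7. CAND1, which regulates the exchange of subunits in cullin ubiquitin ligases such as the auxin receptor complex, had 4. RGA, a DELLA repressor of gibberellin response, and OPR3, an enzyme of jasmonate synthesis, had 3 each, and PSKR1, the phytosulfokine receptor kinase, had 1. The efflux carrier gene PIN4, which exports auxin in the root tip, had 0 inside it and a listed SNP 7 bp outside it. BRL2, a receptor-like kinase of the vasculature, had 0 with a SNP 32 bp away. IBR5, a phosphatase of auxin response, ARR14, a cytokinin response regulator, and AHK4, a cytokinin receptor, had 0, with the nearest SNP 320 bp, 602 bp and 3.23 kb away.

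Genes of growth, the cell cycle and flowering held a SNP in 4 of 8 cases, also near the 40.9% of the interval (29.2% over the 5 chromosomes), with a median of 0.5. APC2, a subunit of the anaphase-promoting complex, had 3, PKS1, a substrate of phytochrome, and DRP3B, a dynamin-related protein of organelle division, had 2 each, and CBP80, the large subunit of the nuclear cap-binding complex, had 1. CALS5, a callose synthase of pollen wall formation, had 0 over 12.1 kb, the longest gene of the 3 lists. SEP4, a MADS-box floral regulator, XTH4, a cell wall enzyme, and MUR2 had 0.

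Genes of metabolism, the plastid and stress held a SNP in 5 of 10 cases, again beside 40.9% in the interval and 29.2% over the 5 chromosomes, with a median of 0.5. MOD1, an enoyl reductase of fatty acid synthesis, had 5, and GAD4, a glutamate decarboxylase, had 4. SOS1, the sodium-proton antiporter of salt tolerance, had 2, and LHCB2.2, a light-harvesting protein of photosystem II, and GSTF3, a glutathione transferase, had 1 each. The chaperone gene HSP90.5, the sterol synthesis gene CAS1, the photorespiratory gene AGT, the kinase gene RIPK and LHCB2.1 had 0. Together 14 of the 28 list genes held a listed SNP, beside 40.9% of protein-coding genes in the interval, 49.8% in its first 2 Mb and 29.2% over the 5 chromosomes. A listed SNP in a gene does not show that the gene was altered by EMS or bears on the phenotype.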

How the data were processed

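Genomic DNA was sequenced on a HiSeq2000 instrument from 2 pools of seedlings, per the labels' protocols. The authors deposited 1 table of chromosome numbers and positions of SNPs, found by SNPtrack according to the design text and placed on TAIR10, per the submitters' processing notes. Aligner, thresholds, read depth and what made a site homozygous: not given in the sources used here. Position cells that held no number, 5 in all, were left out. SNPs were counted in windows of 100 and 10 kb, and distances were taken between neighbouring listed positions, with Python 3.11.15, numpy 2.4.6, pandas 2.3.3 and scipy 1.17.1. Densities carry exact Poisson and shares exact Clopper-Pearson 95% intervals. Genes came from a RefSeq table of TAIR10.1, whose nuclear chromosomes are taken to be those of TAIR10, and no gene coordinates are given. Of 11 shifts of the annotation, the unshifted one put the most SNPs of the interval in protein-coding genes (25.3%, against 21.8% to 24%). A gene was counted where it starts in the interval. The window and gap code was tested on simulated data. Genes were named as the 10 with the most SNPs, those with a symbol in the 5 longest gaps, and members of fixed lists. ABCC13, MCM5 and the loci at cluster or gap ends were chosen after their values were seen. The interval and the lists were chosen with earlier results of these data known.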

Additional observations from a re-analysis of the deposited data

How the results depend on the processing

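No paired analysis was possible because there was 1 list, tied to neither pool, and no replicate to leave out. Thinning to at most 1 listed SNP per 1 kb lowered the density from 450 to 276 per Mb and the median window from 43.5 to 29, as it must in clumped positions, and left the longest gap at 177 kb and called the same 3 windows low. Leaving out 3.2 to 3.6 Mb gave 470 per Mb and, as an alternative chosen after seeing the data, raised the share of protein-coding genes with a SNP from 40.9% to 46.6%. Adding 1 kb on either side of each gene raised that share to 61.8%. A threshold of 50% called 8 windows low in place of 3. Leaving out SNPs with no other within 10 kb, which can only widen a gap, lengthened the longest gap from 177 to 283 kb. Neighbours were within 50 bp in 14.8% and within 200 bp in 25.8%, against 18.6% within 100 bp, which became 17.2% without the 10 clusters of most SNPs, an alternative also chosen after seeing the data. Ending the interval at 5 or 7 Mb, other window sizes and shifted windows moved no result they were applied to beyond its counting interval or 1.5 times its count. The planned counts of reference bases under the SNPs and of bases that are not N were not run, because no genome sequence was used here.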
